A study of Mus musculus with 6 samples.

Results

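The S100 proteins and the annexins are families of calcium-binding proteins, and the expression of their genes was examined in mouse renal cortex after ischemic injury with and without bruceine A (BA, spelled brucine A in the labels), a plant compound of the quassinoid class. Members were taken by symbol, as S100 followed by a, b or g, or as Anxa followed by a digit. This gave 26 of 19176 genes in the table, of which 15 were S100 genes and 11 were annexin genes. S100a5 and Anxa10, which carry such symbols in the GENCODE M21 annotation, were not analysed here.

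All 6 libraries came from wild-type C57BL/6J males, 8 weeks old at the start according to the methods, and all mice underwent unilateral renal ischemia-reperfusion injury (UIRI), with the opposite kidney removed shortly before collection. The 3 UIRI libraries came from mice given vehicle (ethanol in saline) by daily intraperitoneal injection, and the 3 UIRI + BA libraries from mice given BA at 1 mg/kg each day. Cortex was collected on day 14. No uninjured cortex was analysed here, so the effect of the injury itself could not be read from these libraries. Each library was made from cortical tissue of mixed cell types by poly(A) selection, and values are normalized counts, that is, reads on a gene divided by the size factor of the library. Reads on genes amounted to 18683621, 18684293 and 38124164 in UIRI replicates 1, 2 and 3, and to 16510720, 19725912 and 20313529 in UIRI + BA replicates 1, 2 and 3.

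S100 proteins are EF-hand proteins that mostly work as dimers. On binding calcium they expose a surface that grips target proteins, and several are released from damaged or activated cells, where they act as danger signals on receptors such as RAGE and TLR4. Annexins bind negatively charged phospholipids when calcium rises, and they take part in membrane repair, vesicle traffic and the clearance of dying cells. Some members of the families pair with each other, such as S100A10 with annexin A2 and S100A11 with annexin A1. In the kidney, S100A8 and S100A9 are mainly products of neutrophils and monocytes that enter the tissue, whereas other S100 proteins and most annexins are made by tubular epithelium, stroma and vessels.

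Markers of cortex were present in every library. The proximal tubule list summed to 25273, 27993 and 40143 in the UIRI libraries and 47803, 41463 and 50275 in the UIRI + BA libraries, and podocyte markers summed to 9808, 11310 and 9852 in the UIRI libraries and 10210, 11882 and 9063 in the UIRI + BA libraries. UIRI replicate 3 stood apart from the other UIRI libraries. It held 2.04 times the median reads of the other libraries, and its proximal tubule sum lay nearer to the UIRI + BA libraries. Urothelium markers, which belong to the lining of the renal pelvis, summed to 283, 201 and 731 in the UIRI libraries and 94.0, 118 and 465 in the UIRI + BA libraries, so that UIRI replicate 3 and UIRI + BA replicate 3 held the most within their groups. Counts of members without these libraries are therefore given as well.

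With BA, 7 of the 26 members were lower and 0 were higher at an unadjusted p below 0.05 in limma, and the members that were lower were S100a8, S100a9, S100a14, S100a16, Anxa1, Anxa3 and Anxa13. That share is 26.9%, beside 4.61% lower (884 genes) and 5.67% higher (1087 genes) among all 19176 genes tested. After Benjamini-Hochberg adjustment over all genes, limma called 0 of 26 members and 0 of 19176 genes (0%) at an adjusted p below 0.05, with 1971 genes at an unadjusted p below 0.05. The smallest adjusted p of any gene was 0.225. DESeq2 on the recovered reads called 213 genes, and among them S100a8, S100a9 and Anxa1 were lower. For DESeq2 these are 3 of the 21 members with an adjusted p, beside 0.349% of all genes with one that were lower, and 0 members were higher beside 1.14%. Without UIRI + BA replicate 3, DESeq2 called 120 genes and none of the 22 members with an adjusted p. Of all genes with one, 0.453% were called and lower in that fit. It gave adjusted p values of 0.142 for S100a8, 0.105 for S100a9 and 0.143 for Anxa1. Their log2 fold changes were then -0.83, -0.70 and -0.38, beside -0.80, -0.70 and -0.35 in DESeq2 with all libraries. Without UIRI replicate 3 it called 1618 genes, and 6 members were lower (S100a6, S100a8, S100a9, S100a13, S100a16 and Anxa1) of 20 with an adjusted p, beside 4.38% of all genes with one. Both of these fits were added after seeing the data. edgeR called 0 genes, with 1703 at an unadjusted p below 0.05.

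In 6 of the 26 members (S100a8, S100a9, S100a11, S100a16, Anxa1 and Anxa3), every UIRI + BA library lay below every UIRI library. Among all genes 6.96% were arranged in that way, and 7.45% in the opposite way, which no member showed. Without UIRI replicate 3, 11 members were lower and 3 higher in this sense, beside 22.5% and 23.0% of all genes, and without UIRI + BA replicate 3 there were 8 and 1, beside 12.4% and 11.7%. The log2 fold change (UIRI + BA minus UIRI, on the scale of log2 of the normalized count plus 1) had a median of -0.27 over the 15 S100 genes, -0.16 over the 11 annexin genes and -0.01 over all genes. The median was -0.73 for S100a8 and S100a9 together and -0.17 for the other 13 S100 genes. As a share of all reads on genes, the 26 members took 0.392%, 0.374% and 0.361% in the UIRI libraries and 0.322%, 0.355% and 0.346% in the UIRI + BA libraries. All 3 UIRI + BA shares lay below the UIRI shares.

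**Figure D1:**
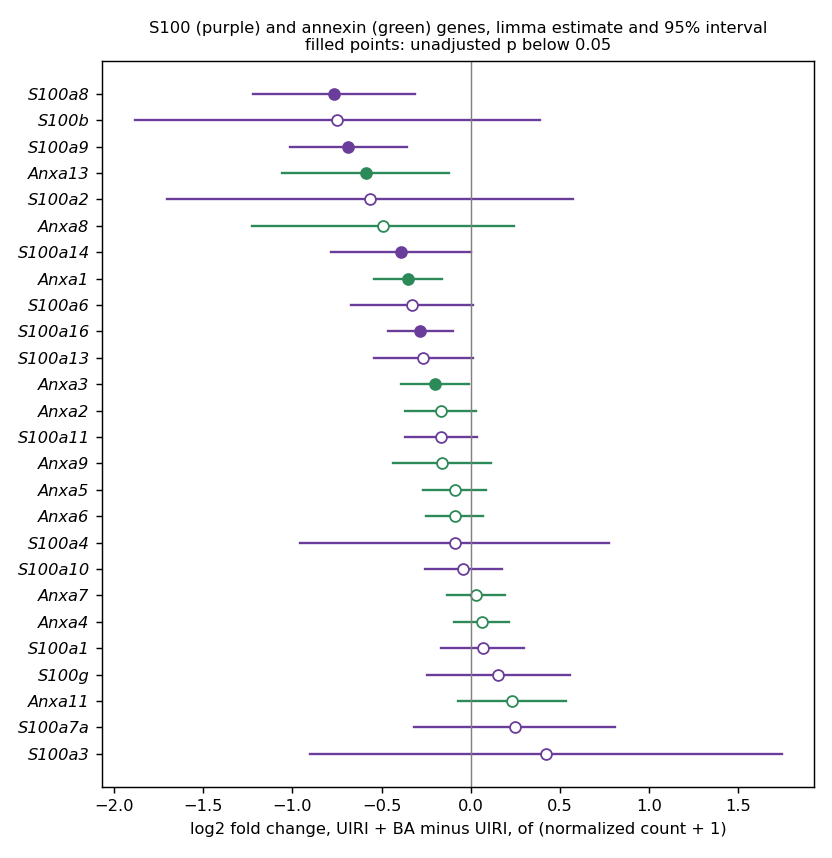
Log2 fold change (UIRI + BA minus UIRI, x axis) of the 26 S100 and annexin genes with the 95% interval of limma; purple marks S100 genes, green marks annexin genes, and filled points have an unadjusted p below 0.05. The 7 filled points all lie left of 0, from -0.77 for S100a8 to -0.20 for Anxa3, and the widest intervals belong to genes with few reads such as S100a3 and S100b.

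Without UIRI replicate 3, 9 members were lower and 1 was higher (Anxa11) at an unadjusted p below 0.05, while 11.5% of all genes were lower and 13.7% higher at that threshold. Only 4 of the 7 members named above were among these 10, namely S100a8, S100a9, S100a16 and Anxa1. In that fit limma called 962 genes at an adjusted p below 0.05, including S100a8, S100a9, S100a13, S100a16 and Anxa1, all lower, beside 344 of all genes (1.79%) that were called and lower. The other members that were lower at an unadjusted p below 0.05 were S100a6, S100a11, S100b and Anxa2. With replicate 3 left out of both groups, a setting chosen after seeing the data, 8 members were lower and 2 (Anxa11 and S100g) were higher, beside 10.8% of all genes lower and 12.4% higher. In it limma called 557 genes, and S100a8, S100a9 and S100a16 were among them, all lower, beside 206 of all genes (1.07%). Without UIRI + BA replicate 3 alone, 5 members were lower (S100a8, S100a9, S100a14, S100a16 and Anxa1) and 1 was higher (S100g), beside 4.35% and 4.06% of all genes.

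S100a8 and S100a9 encode the subunits of calprotectin, which sequesters metals and signals through TLR4. S100a8 had normalized counts of 351, 264 and 195 in the UIRI libraries and 137, 166 and 161 in the UIRI + BA libraries. The UIRI libraries were spread over a wide range, UIRI replicate 1 was the highest, and the groups did not overlap. The mean was 270.2 ± 78.3 with UIRI and 154 ± 15.6 with UIRI + BA (SD, n = 3 each), and limma gave a log2 fold change of -0.77 (SE 0.20), with an unadjusted p of 0.00395 and an adjusted p of 0.291. S100a9 had 399.9, 299 and 274 in the UIRI libraries and 198, 199 and 198 in the UIRI + BA libraries. Its UIRI + BA libraries were nearly equal to each other, and again every one lay below the UIRI libraries. The mean was 324 ± 66.5 with UIRI and 198 ± 0.677 with UIRI + BA (SD, n = 3 each), and limma gave a log2 fold change of -0.69 (SE 0.15), with an unadjusted p of 0.00104 and an adjusted p of 0.225. The exact two-sided permutation p was 0.1 for each gene, the smallest that 3 against 3 libraries can give. DESeq2 gave adjusted p values of 0.0290 for S100a8 and 0.0120 for S100a9, and over all alternatives the adjusted p ran from 5.53e-05 to 0.9995 for S100a8 and from 0.000403 to 0.9995 for S100a9, the highest without UIRI replicate 1. Both genes kept an unadjusted p below 0.05 in limma when any 1 library was left out. In bulk tissue, fewer cells of a type and less RNA per cell cannot be told apart.

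The S100a8 to S100a9 ratio of normalized counts per kilobase of exon was 0.661, 0.665 and 0.534 in the UIRI libraries and 0.519, 0.626 and 0.610 in the UIRI + BA libraries. The groups overlapped, with an exact permutation p of 0.5.

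Because these genes were lower together, their promoters are shown, as RefSeq gives them on build GRCm38.p6. Of the 26 members, 20 had a promoter entry, and the 250 bases before each start were searched on both strands for TATAAA (a core promoter element, in 12.4% of 32841 promoters searched over the same length), TGANTCA (AP-1, 6.75%), TTGCNNAA (C/EBP, 9.57%) and the NF-kB motif (3.9%). Capitals mark matches, and bases that GENCODE M21 counts as exon were left out of the printed stretches. S100a8 lies at chr3:90668821-90668977, plus strand, and S100a9 at chr3:90695722-90695971, minus strand.
S100a8: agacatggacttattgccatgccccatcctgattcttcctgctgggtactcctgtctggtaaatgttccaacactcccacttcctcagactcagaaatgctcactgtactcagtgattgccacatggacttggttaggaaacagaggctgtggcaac
S100a9: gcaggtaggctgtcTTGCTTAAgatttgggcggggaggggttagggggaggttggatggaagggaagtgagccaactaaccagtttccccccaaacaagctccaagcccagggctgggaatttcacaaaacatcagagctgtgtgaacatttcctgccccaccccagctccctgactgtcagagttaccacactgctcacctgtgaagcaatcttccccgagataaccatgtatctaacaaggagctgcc
The S100a8 stretch shown holds no match, but a TATAAA match lies 30 bases before its start, outside the stretch. S100a9 holds a C/EBP match that begins 236 bases before its start. A match is a run of letters and was not tested for binding.

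Other markers of neutrophils were also lower with BA. Of the 11 markers in the neutrophil list, 5 were measured (Mmp9, Cxcr2, Csf3r, Ltf and Mmp8), and all 5 were lower, 2 of them at an unadjusted p below 0.05, while Ly6g, Ngp, Camp, Retnlg, Elane and Mpo were not analysed here. Where DESeq2 called a list gene, here and below, its adjusted p is added. For the list counts here and below, 51.1% of all genes were lower in limma. At an unadjusted p below 0.05, 4.61% of all genes were lower and 5.67% higher. The 5 genes summed to 1292, 1311 and 1059 in the UIRI libraries and 981, 980.0 and 836 in the UIRI + BA libraries. Csf3r, the receptor for granulocyte colony-stimulating factor, was the most abundant by normalized count, the measure used for every list, with 887, 926 and 691 in the UIRI libraries and 737, 728 and 618 in the UIRI + BA libraries. Its groups overlapped, and its log2 fold change was -0.26 (SE 0.13, unadjusted p = 0.0709, adjusted p = 0.519) in limma. The metalloproteinase gene Mmp9, which macrophages and tubules also express, had 263, 238 and 223 in the UIRI libraries and 135, 157 and 127 in the UIRI + BA libraries. Its groups did not overlap, and limma gave a log2 fold change of -0.79 (SE 0.13), with an unadjusted p of 0.000187 and an adjusted p of 0.225 (DESeq2 0.00269). The chemokine receptor gene Cxcr2 had 101, 111 and 89.3 in the UIRI libraries and 82.7, 71.1 and 58.4 in the UIRI + BA libraries, again without overlap, and its log2 fold change was -0.51 (SE 0.18, unadjusted p = 0.0194, adjusted p = 0.423) in limma. How far the number of neutrophils takes part in the S100a8 and S100a9 values was not tested.

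**Figure D2:**
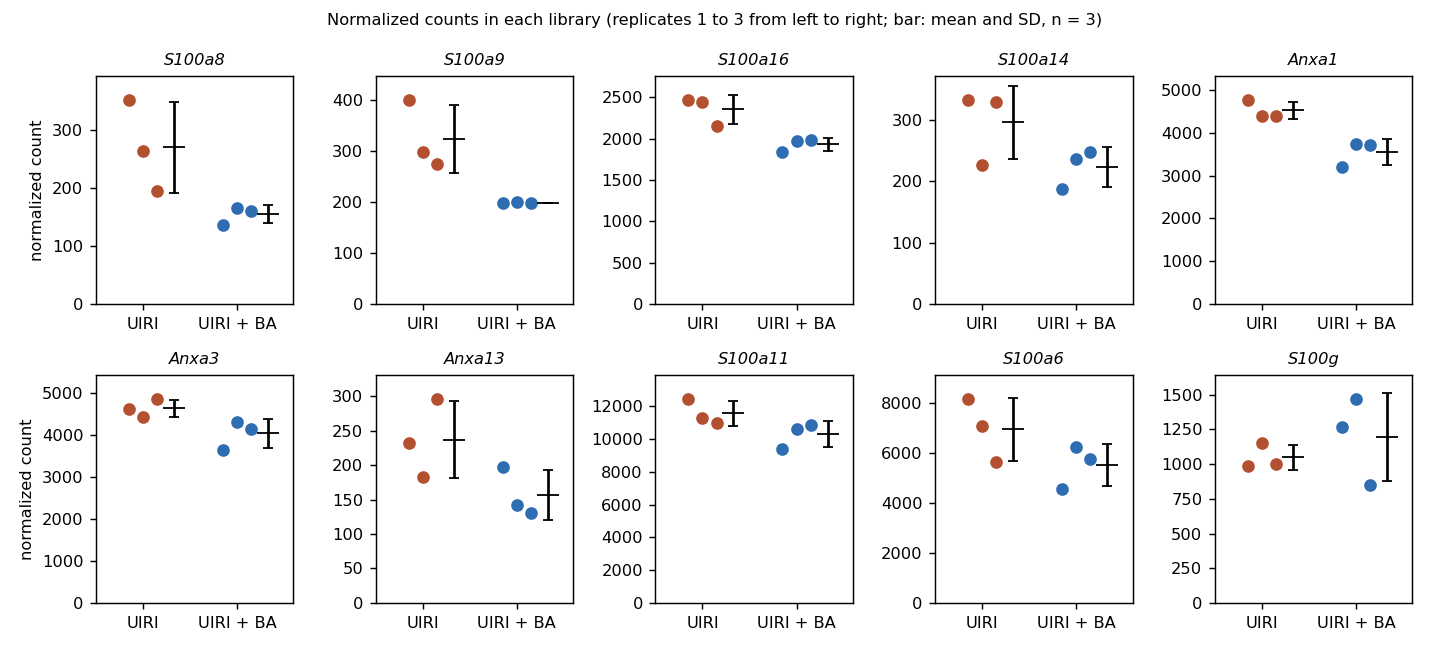
Normalized counts (y axis, from 0) of 10 members in the 3 UIRI libraries (brown) and the 3 UIRI + BA libraries (blue), with mean and SD at the right of each group. The groups do not overlap for S100a8, S100a9, S100a16, Anxa1, Anxa3 and S100a11, and they overlap for S100a14, Anxa13, S100a6 and S100g.

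Macrophage and monocyte markers were lower in 12 of 12 genes, 3 of them at an unadjusted p below 0.05, with a median log2 fold change of -0.27. They summed to 142760, 131023 and 101270 in the UIRI libraries and 101734, 111422 and 96299 in the UIRI + BA libraries. UIRI replicate 3 lay among the UIRI + BA libraries in this sum. Lysozyme 2 (Lyz2) was the most abundant marker, with a log2 fold change of -0.26 (SE 0.15, unadjusted p = 0.120, adjusted p = 0.568) in limma, and the mannose receptor Mrc1 and the integrin Itgam had -0.23 (adjusted p = 0.389) and -0.32 (adjusted p = 0.398). The chemokine receptor Ccr2 had -0.24 (adjusted p = 0.483). T cell markers were lower in 6 of 8 genes, 0 at an unadjusted p below 0.05, and summed to 2142, 2081 and 1680 in the UIRI libraries and 1939, 2301 and 1423 in the UIRI + BA libraries, with Lck the most abundant (log2 fold change -0.07). Their part in the values of the S100 genes was not tested.

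Among the epithelial and stromal S100 genes, S100a16 was the one with the smallest p. It encodes a widely expressed EF-hand protein and had 2463, 2445 and 2151 in the UIRI libraries and 1838, 1971 and 1984 in the UIRI + BA libraries. The lowest UIRI library, replicate 3, was still above the highest UIRI + BA library. The mean was 2353 ± 175 with UIRI and 1931 ± 80.8 with UIRI + BA (SD, n = 3 each), and limma gave a log2 fold change of -0.28 (SE 0.08), with an unadjusted p of 0.00668 and an adjusted p of 0.332. The adjusted p was 0.0307 without UIRI replicate 3, and over all alternatives it ran from 0.00372 to 0.9995. S100a14, a gene of epithelia, had 332, 227 and 329 in the UIRI libraries and 187, 236 and 247 in the UIRI + BA libraries. UIRI replicate 2 lay within the UIRI + BA range, so the groups overlapped. Limma gave a log2 fold change of -0.39 (SE 0.17), with an unadjusted p of 0.0494 and an adjusted p of 0.486, and the exact permutation p was 0.300. S100a14 no longer had an unadjusted p below 0.05 when UIRI replicate 1 or 3 or UIRI + BA replicate 1 or 2 was left out, with log2 fold changes of -0.30, -0.31, -0.27 and -0.44 in that order.

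S100a6 (calcyclin), made by stroma and injured epithelium, had 8169, 7101 and 5639 in the UIRI libraries and 4583, 6242 and 5775 in the UIRI + BA libraries. UIRI replicates 1 and 2 were the highest of all, whereas UIRI replicate 3 lay inside the UIRI + BA range. Limma gave a log2 fold change of -0.33 (SE 0.15), with an unadjusted p of 0.0576 and an adjusted p of 0.498, and the log2 fold change was -0.20 without UIRI + BA replicate 1 and -0.21 without UIRI replicate 1. Leaving out UIRI replicate 3 gave -0.47 (unadjusted p = 0.00410, adjusted p = 0.0609), and over all alternatives the adjusted p ran from 0.00403 to 0.9995. S100a13, which takes part in the export of fibroblast growth factor 1, showed the same arrangement, and its log2 fold change was -0.27 (SE 0.12, unadjusted p = 0.0572, adjusted p = 0.497) in limma, with an adjusted p of 0.0388 without UIRI replicate 3, 0.0692 with replicate 3 of both groups left out, and a range of 0.00907 to 0.9995 over all alternatives.

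S100a11, S100a6 and S100a10 had the highest normalized counts among S100 genes. S100a11, the partner of annexin A1, had 12438, 11304 and 10968 in the UIRI libraries and 9417, 10651 and 10875 in the UIRI + BA libraries. All UIRI + BA libraries were lower than all UIRI libraries, but UIRI replicate 3 and UIRI + BA replicate 3 were close together. The log2 fold change was -0.17 (SE 0.09, unadjusted p = 0.0959, adjusted p = 0.548) in limma, -0.10 without UIRI + BA replicate 1 and -0.20 (unadjusted p = 0.0457) when UIRI replicate 3 was left out. GENCODE M21 annotates a processed pseudogene, S100a11-ps, which is not in the table. Whether reads were divided between the copies was not tested, so the level of S100a11 here, per kilobase and in the ratio below is uncertain. S100a10, the partner of annexin A2, does not need calcium for that binding and had 5542, 5286 and 4702 in the UIRI libraries and 4509, 5391 and 5199 in the UIRI + BA libraries. The groups overlapped, with a log2 fold change of -0.04 and a 95% interval of -0.26 to 0.17 in limma, which leaves room for a difference in either direction. S100a1, known from muscle and also expressed in kidney, had a log2 fold change of 0.07 (95% interval -0.16 to 0.30). S100a1 and S100a13 are neighbours on chromosome 3 that start head to head, and 13 of the 15 S100 genes lie on that chromosome.

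The promoters of S100a16 and S100a11 are shown because both genes had groups without overlap and held AP-1 matches, again in capitals. S100a16 has 2 entries, and the one with the match lies at chr3:90540896-90541145, plus strand. S100a11 lies at chr3:93520246-93520487, plus strand.
S100a16: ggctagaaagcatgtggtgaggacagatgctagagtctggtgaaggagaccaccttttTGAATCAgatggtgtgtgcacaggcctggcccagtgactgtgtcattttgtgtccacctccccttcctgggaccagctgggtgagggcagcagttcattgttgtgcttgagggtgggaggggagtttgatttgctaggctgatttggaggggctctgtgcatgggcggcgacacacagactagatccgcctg
S100a11: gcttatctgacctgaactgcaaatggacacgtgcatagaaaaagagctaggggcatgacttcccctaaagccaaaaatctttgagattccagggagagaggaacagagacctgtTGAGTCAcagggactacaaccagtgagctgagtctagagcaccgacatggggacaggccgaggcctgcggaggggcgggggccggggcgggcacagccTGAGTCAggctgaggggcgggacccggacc
S100a16 holds 1 match and S100a11 holds 2. Of the 27 promoters of the 20 members with an entry, AP-1 letters occurred in 3 (S100a16, S100a11 and Anxa2), TATAAA in 5 (S100a3, S100a4, S100a8, Anxa1 and Anxa2), the C/EBP letters in 4 (S100a9, S100g, Anxa1 and Anxa4) and the NF-kB motif in 1 (Anxa4). In that order these were 11.1%, 18.5%, 14.8% and 3.7%, beside 6.75%, 12.4%, 9.57% and 3.9% of all promoters searched. S100a8, S100a9 and Anxa1, whose groups did not overlap, held no AP-1 match, whereas the groups of Anxa2 overlapped.

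S100g (calbindin-D9k) carries calcium through cells of the distal nephron and responds to vitamin D. It had 987, 1155 and 1004 in the UIRI libraries and 1268, 1468 and 848 in the UIRI + BA libraries. UIRI + BA replicate 2 was the highest and UIRI + BA replicate 3 the lowest of all libraries, and the groups overlapped. Limma gave a log2 fold change of 0.15 (SE 0.18), with an unadjusted p of 0.406 and an adjusted p of 0.760. Without UIRI + BA replicate 3 the log2 fold change was 0.38 with an unadjusted p of 0.00948, and without UIRI + BA replicate 2 it was -0.01. Markers of the distal convoluted and connecting tubule, where S100g is expressed, summed to 12900, 14023 and 16679 in the UIRI libraries and 21444, 20250 and 14397 in the UIRI + BA libraries. UIRI + BA replicate 3 was the lowest of the UIRI + BA libraries in this sum, but it lay above UIRI replicates 1 and 2. Klk1 alone had 8549 in UIRI + BA replicate 3. The mean of log2(normalized count + 1) over the list was 10.29, 10.44 and 10.75 in the UIRI libraries. In the UIRI + BA libraries it was 11.03, 10.85 and 10.26. By that mean, UIRI + BA replicate 3 was the lowest of all libraries. In that list 5 of 6 measured genes were higher, 1 at an unadjusted p below 0.05, namely Klk1 (tissue kallikrein), the most abundant, with a log2 fold change of 0.47 (SE 0.11, unadjusted p = 0.00258, adjusted p = 0.263, DESeq2 0.0159) in limma; Pvalb was not analysed here.

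Genes of the distal calcium transport list were higher in 9 of 11 cases, with a median log2 fold change of 0.21. At an unadjusted p below 0.05, 1 was higher and 1 lower. The list includes Vdr, Cyp24a1, Cyp27b1 and Pth1r, and it shares Trpv5, Calb1 and Slc8a1 with the list above. It summed to 12444, 13242 and 15149 in the UIRI libraries and 17164, 15192 and 14765 in the UIRI + BA libraries. In this sum UIRI + BA replicate 3 lay below UIRI replicate 3. The vitamin D receptor gene Vdr had 1456, 1608 and 1778 in the UIRI libraries and 2601, 2053 and 2349 in the UIRI + BA libraries. All UIRI + BA libraries were higher than all UIRI libraries, and limma gave a log2 fold change of 0.53 (SE 0.11), with an unadjusted p of 0.000803 and an adjusted p of 0.225 (DESeq2 0.00507). The calcium channel gene Trpv6 was lower, with -0.39 (SE 0.16, unadjusted p = 0.0365, adjusted p = 0.466), and its groups overlapped. The calcium pump gene Atp2b1 had the highest counts and a log2 fold change of 0.16 (adjusted p = 0.673).

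The remaining S100 genes had few reads. S100a4 (fibroblast-specific protein 1) had 17.0, 11.2 and 8.21 in the UIRI libraries and 12.5, 14.0 and 7.30 in the UIRI + BA libraries. The groups overlapped, and the 95% interval of the log2 fold change ran from -0.96 to 0.78 in limma. In GENCODE M21, 51.7% of the exon bases of S100a4 also belong to the read-through gene Gm42674 on the same strand, so reads could have been set aside as ambiguous in counting, and the level of S100a4 is uncertain. S100a2, S100a3, S100b and S100a7a had 1 to 72 reads per library, and their log2 fold changes of -0.56, 0.42, -0.75 and 0.25 came with SE of 0.50, 0.59, 0.50 and 0.25. With 1 library left out they ran from -1.03 to -0.21 for S100a2, -0.19 to 0.82 for S100a3, -1.14 to -0.43 for S100b (unadjusted p = 0.0469 at the lowest, when UIRI replicate 3 was left out) and 0.09 to 0.41 for S100a7a. At an adjusted p below 0.05 no setting called any of these 4 genes, and their low depth limits what could be detected.

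Among the annexins, Anxa1 had the smallest p. Annexin A1 is induced by glucocorticoids and limits the entry of neutrophils through formyl peptide receptors. It had 4768, 4411 and 4409 in the UIRI libraries and 3201, 3739 and 3725 in the UIRI + BA libraries. The UIRI libraries lay close together, UIRI + BA replicate 1 was the lowest, and the groups did not overlap. The mean was 4529 ± 207 with UIRI and 3555 ± 307 with UIRI + BA (SD, n = 3 each), and limma gave a log2 fold change of -0.35 (SE 0.09), with an unadjusted p of 0.00244 and an adjusted p of 0.263. DESeq2 gave an adjusted p of 0.0411, limma without UIRI replicate 3 gave 0.0450, and the range over all alternatives was 0.00446 to 0.9995. Anxa1 kept an unadjusted p below 0.05 with any 1 library left out, and its log2 fold change then ran from -0.39 to -0.28.

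Anxa3, an annexin of epithelia and neutrophils, had 4631, 4447 and 4860 in the UIRI libraries and 3654, 4328 and 4159 in the UIRI + BA libraries. Every UIRI + BA library was below every UIRI library, although UIRI replicate 2 and UIRI + BA replicate 2 were close. Limma gave a log2 fold change of -0.20 (SE 0.08), with an unadjusted p of 0.0412 and an adjusted p of 0.473. The log2 fold change was -0.13 without UIRI + BA replicate 1, and the unadjusted p was below 0.05 in 1 of the 6 fits that left out a library. Anxa13, an annexin of epithelial cells in gut and kidney, had 232, 183 and 296 in the UIRI libraries and 198, 142 and 130.4 in the UIRI + BA libraries. UIRI replicate 3 was the highest, and UIRI + BA replicate 1 lay above UIRI replicate 2, so the groups overlapped. The log2 fold change was -0.59 (SE 0.21, unadjusted p = 0.0191, adjusted p = 0.421) in limma, with an exact permutation p of 0.200. Without UIRI replicate 3 it was -0.42, and with replicate 3 of both groups left out it was -0.30. For Anxa13 the unadjusted p was below 0.05 in 3 of the 6 fits that left out a library.

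Anxa2, Anxa5 and Anxa7 had the highest normalized counts among the annexins. Anxa2, which forms a tetramer with S100A10 that binds plasminogen at the cell surface, had 13159, 12750 and 11804 in the UIRI libraries and 10240, 11903 and 11447 in the UIRI + BA libraries. The lowest UIRI library, replicate 3, was slightly below UIRI + BA replicate 2. The log2 fold change was -0.17 (SE 0.09, unadjusted p = 0.0884, adjusted p = 0.540) in limma, -0.11 without UIRI + BA replicate 1 and -0.21 (unadjusted p = 0.0325) when UIRI replicate 3 was left out. Anxa5, known for binding phosphatidylserine on dying cells, had 11855, 11116 and 11090 in the UIRI libraries and 10019, 10852 and 11129 in the UIRI + BA libraries. The groups overlapped, and the 95% interval of its log2 fold change was -0.27 to 0.09. Anxa7, which takes part in membrane fusion, had 4356, 4397 and 4540 in the UIRI libraries and 4282, 4722 and 4582 in the UIRI + BA libraries. Its groups overlapped as well, with a log2 fold change of 0.03 and a 95% interval of -0.13 to 0.19, and its sign changed with quantile normalization. The other 5 annexins (Anxa4, Anxa6, Anxa8, Anxa9 and Anxa11) had log2 fold changes from -0.49 for Anxa8 to 0.23 for Anxa11, with overlapping groups and 0 at an unadjusted p below 0.05. Anxa8 was highest in UIRI replicate 3, at 114 beside 60.0 and 42.7 in the other UIRI libraries, the library that also held the most urothelium signal. Its log2 fold change was -0.11 without that library and -0.81 (unadjusted p = 0.0256) without UIRI replicate 2. Anxa11 had 0.35 (unadjusted p = 0.0144) without UIRI replicate 3, whereas leaving out UIRI + BA replicate 1 gave 0.13.

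**Figure D3:**
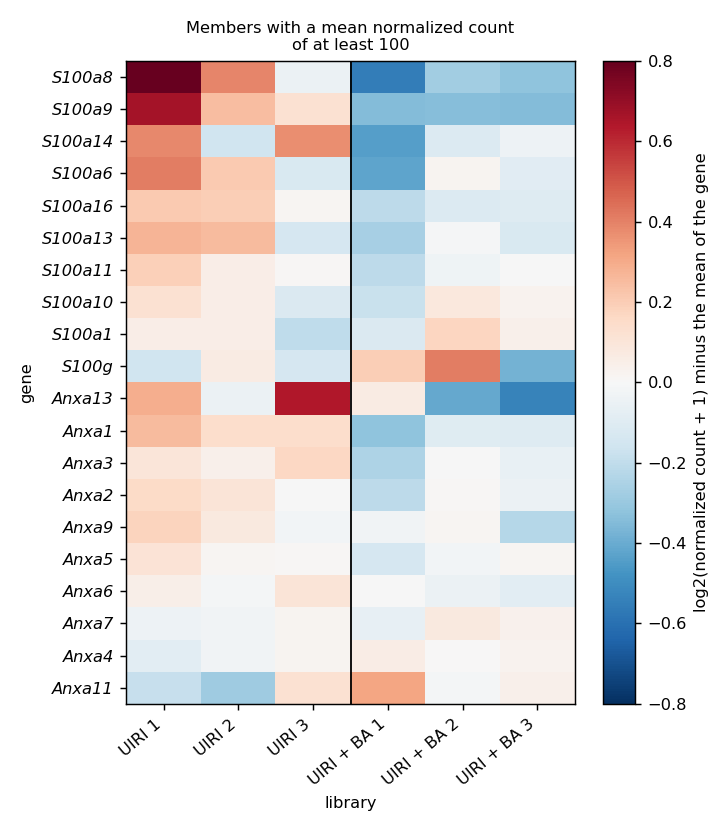
Deviation of each library (columns) from the mean of the gene in log2(normalized count + 1), for the 20 members (rows) whose normalized counts averaged 100 or more. S100a8 and S100a9 are highest in UIRI replicate 1, Anxa13 in UIRI replicate 3, and S100g is high in UIRI + BA replicates 1 and 2 but lowest in replicate 3.

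The genes of paired proteins were also compared with each other, for pairs chosen after the values were seen. The S100a10 to Anxa2 ratio of normalized counts per kilobase was 1.30, 1.28 and 1.23 in the UIRI libraries and 1.36, 1.39 and 1.40 in the UIRI + BA libraries. Every UIRI + BA library was higher, with means of 1.27 ± 0.0363 and 1.38 ± 0.0236 (SD, n = 3 each, exact permutation p = 0.1). The S100a11 to Anxa1 ratio was 14.9, 14.6 and 14.2 in the UIRI libraries and 16.8, 16.2 and 16.6 in the UIRI + BA libraries. It was likewise higher in every UIRI + BA library, with means of 14.5 ± 0.347 and 16.5 ± 0.278 (SD, n = 3 each, exact permutation p = 0.1). These ratios rest on the same libraries as the single genes and are no separate measurement.

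Levels between genes were compared as normalized counts per kilobase of exon, with lengths from GENCODE M21, since the annotation used in counting is not named. S100a11 stood first at 22642 ± 1508 with UIRI and 20185 ± 1537 with UIRI + BA. Anxa5 came next at 6389 ± 244 with UIRI and 6003 ± 325 with UIRI + BA, and then S100a1 at 4821 ± 481 with UIRI and 5047 ± 500.4 with UIRI + BA. S100a6 and S100a10 followed, at 5099 ± 929 with UIRI and 4048 ± 626 with UIRI + BA for S100a6 and 4271 ± 356 with UIRI and 4152 ± 383 with UIRI + BA for S100a10. The ranges of S100a1, S100a6 and S100a10 overlapped, so their order is not settled. S100a9 and S100a8 ranked 15 and 16 of 26, at 622 ± 127 with UIRI and 380.2 ± 1.30 with UIRI + BA for S100a9 and 389 ± 113 with UIRI and 222 ± 22.5 with UIRI + BA for S100a8. Other genes overlap at most 4.53% of the exon bases of a further member on the same strand (Anxa9). S100a3 was the lowest at 0.849 ± 0.591 with UIRI and 1.03 ± 0.327 with UIRI + BA. Its annotated exons cover 5660 bases, the most of any S100 gene, and the value per kilobase depends on that length.

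**Figure D4:**
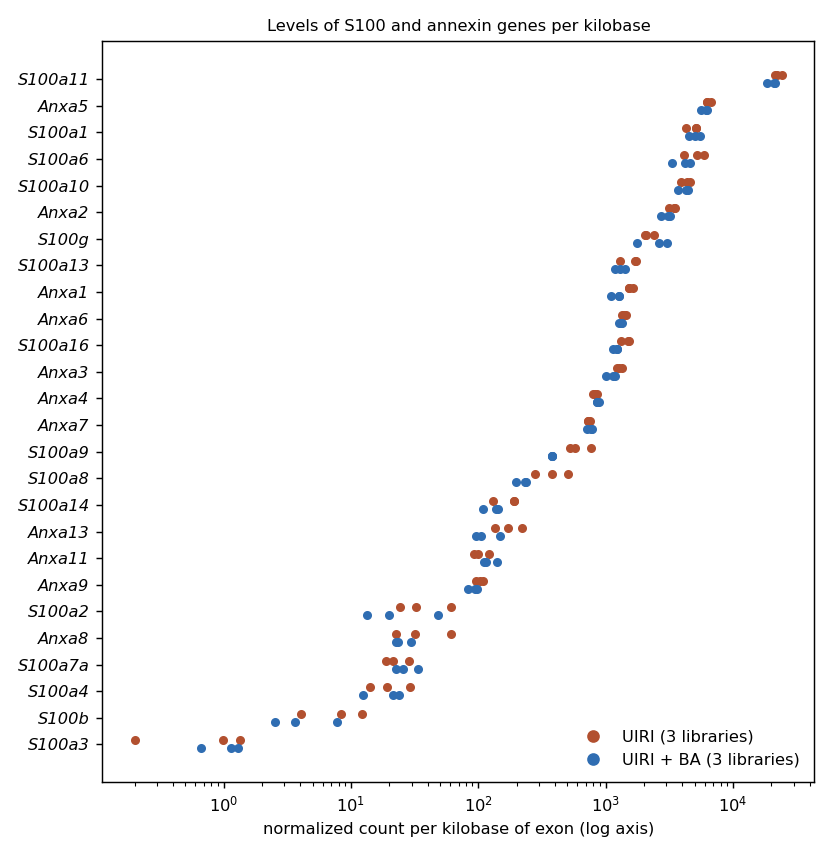
Normalized counts per kilobase of exon (x axis, log scale) of the 26 members in the 3 UIRI (brown) and 3 UIRI + BA (blue) libraries, ordered by mean. S100a11 lies above all other members in every library, and S100a8 and S100a9 lie in the lower part of the order.

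Markers of stroma and epithelium are set beside the members. Fibroblast and myofibroblast markers were lower in 11 of 11 genes, 6 at an unadjusted p below 0.05, and summed to 134416, 115761 and 119050 in the UIRI libraries and 84621, 91083 and 107731 in the UIRI + BA libraries. The collagen gene Col3a1 was the most abundant, with 46022, 34494 and 39081 in the UIRI libraries and 22478, 24888 and 34434 in the UIRI + BA libraries. Its groups were barely apart, since UIRI replicate 2 and UIRI + BA replicate 3 were nearly equal, and its log2 fold change was -0.56 (SE 0.17, unadjusted p = 0.00855, adjusted p = 0.354, DESeq2 0.0457) in limma. Col1a1 and Col1a2 had log2 fold changes of -0.32 (adjusted p = 0.291, DESeq2 0.0307) and -0.32 (adjusted p = 0.364).

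Proximal tubule markers were higher in 12 of 12 genes, 10 at an unadjusted p below 0.05, with a median log2 fold change of 0.71. The phosphate transporter Slc34a1, the most abundant, had 7708, 9085 and 10995 in the UIRI libraries and 12758, 12832 and 14182 in the UIRI + BA libraries. The groups did not overlap, and limma gave a log2 fold change of 0.53 (SE 0.12), with an unadjusted p of 0.00208 and an adjusted p of 0.260 (DESeq2 0.0127). The carboxylate transporter Slc13a3 had 0.77 (SE 0.14, unadjusted p = 0.000334, adjusted p = 0.225, DESeq2 0.000972), and the endocytic receptor Lrp2 had 0.78 (SE 0.19, unadjusted p = 0.00244, adjusted p = 0.263, DESeq2 0.00751).

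Injured tubule markers were split, with 7 of 12 higher and 5 lower and 3 at an unadjusted p below 0.05 in each direction. Osteopontin (Spp1), the most abundant gene of the list and of the table, had a log2 fold change of 0.11 (SE 0.16, unadjusted p = 0.493, adjusted p = 0.806) in limma. The list summed to 457414, 460927 and 442051 in the UIRI libraries and 454437, 526400 and 486432 in the UIRI + BA libraries. Lipocalin 2 (Lcn2), released by stressed tubules and neutrophils, had 5260, 4687 and 4507 in the UIRI libraries and 3137, 3469 and 3539 in the UIRI + BA libraries. Every UIRI + BA library was lower, and limma gave a log2 fold change of -0.51 (SE 0.09), with an unadjusted p of 0.000217 and an adjusted p of 0.225 (DESeq2 0.000765). The keratin genes Krt18 and Krt19 were lower as well, with -0.39 (SE 0.09, unadjusted p = 0.00149, adjusted p = 0.249, DESeq2 0.0194) and -0.54 (SE 0.13, unadjusted p = 0.00215, adjusted p = 0.260, DESeq2 0.0180). These 3 had the smallest p of the list. The 3 that were higher were Havcr1 (kidney injury molecule 1) with 0.42 (SE 0.10, unadjusted p = 0.00236, adjusted p = 0.263, DESeq2 0.0127), the adhesion molecule gene Vcam1 with 0.35 (SE 0.10, unadjusted p = 0.00544, adjusted p = 0.311) and the keratin gene Krt20 with 0.41 (SE 0.13, unadjusted p = 0.0141, adjusted p = 0.389) in limma. The groups did not overlap for Havcr1 and Vcam1. Urothelium markers were lower in 10 of 10 genes, 0 at an unadjusted p below 0.05, with a median log2 fold change of -1.31, and Krt15, the most abundant, had 55.5, 48.4 and 217 in the UIRI libraries and 1.25, 5.38 and 152 in the UIRI + BA libraries. The part of these cell types in the values of the S100 and annexin genes was not tested.

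**Figure D5:**
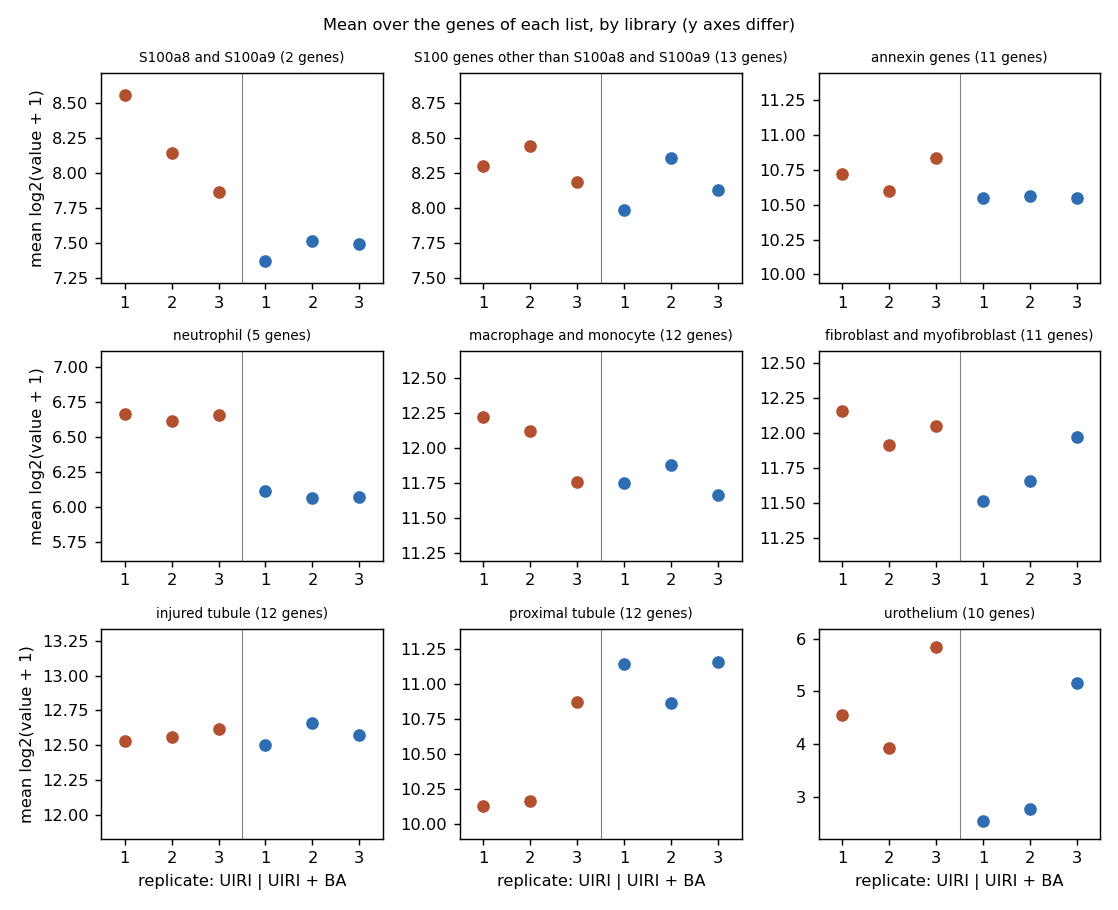
Mean of log2(normalized count + 1) over the genes of each list (y axis) in UIRI replicates 1 to 3 (brown) and UIRI + BA replicates 1 to 3 (blue). S100a8 with S100a9 and the 5 neutrophil markers are lower in every UIRI + BA library, the proximal tubule means of UIRI replicates 1 and 2 are the lowest, and the urothelium means are highest in replicate 3 of each group.

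Among receptors and partners of the S100 proteins, 14 of 15 listed genes were measured, 4 were higher and 10 lower, and 0 had an unadjusted p below 0.05 in limma; Fpr3 was not analysed here. Txnip was the most abundant, at -0.14 (adjusted p = 0.785). In the plasmin system, which the annexin A2 tetramer serves, 3 of 8 genes were higher and 5 lower. Serpinf2, the plasmin inhibitor antiplasmin, had 481, 512 and 657 in the UIRI libraries and 666, 818 and 1133 in the UIRI + BA libraries. All UIRI + BA libraries were higher than all UIRI libraries, and limma gave a log2 fold change of 0.64 (SE 0.19), with an unadjusted p of 0.00757 and an adjusted p of 0.342 (DESeq2 0.0390). Urokinase (Plau) was the most abundant, at 0.06 (adjusted p = 0.903).

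Membrane repair partners were lower in 9 of 13 cases, 1 of them at an unadjusted p below 0.05. That gene was Cavin1, a coat protein of caveolae, with -0.19 (SE 0.08, unadjusted p = 0.0396, adjusted p = 0.472) in limma, while the calpain subunit gene Capns1, the most abundant, had -0.11 (adjusted p = 0.668). Among 20 other EF-hand genes 19 were measured, 6 were higher and 13 lower. The endoplasmic reticulum protein gene Rcn2 was lower, at -0.22 (SE 0.07, unadjusted p = 0.0129, adjusted p = 0.385), and Pls1 (plastin 1) and Calml4 of the brush border were higher, at 0.35 (adjusted p = 0.431) and 0.26 (adjusted p = 0.448) in limma. Calb2 was not analysed here. Of 9 copines, which bind membranes as annexins do, 7 were measured, with 5 higher and 2 lower. Cpne4 had 0.68 (SE 0.28, unadjusted p = 0.0381, adjusted p = 0.468) in limma, and Cpne3, the most abundant, had 0.04 (adjusted p = 0.874). The medians of these lists lay between -0.06 and 0.04, near the value over all genes.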

How the data were processed

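Total RNA of renal cortex was sequenced as 3 UIRI and 3 UIRI + BA poly(A)-selected libraries that the labels call strand-specific. According to the methods, the authors used HISAT2 for alignment, FeatureCounts for counting and DESeq2 for testing. The genome build, annotation and strand setting are not given in the sources used here. The signal deposited by the authors is the read count over the size factor of the library, and 100% of values gave whole reads within a tolerance of 0.001. One read was worth 0.548 to 1.25, and the total of 16510720 to 38124164 reads per library sets the precision of low genes. The same table holds the authors' fold changes and p-values, which were not used, nor were their enrichment tables.

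The table has 19176 rows. Because the values are normalized, limma 3.58.1 (R 4.3.3) with an intensity trend was run on log2 of the value plus 1 for all rows, without covariates, with Benjamini-Hochberg adjustment. DESeq2 1.42.0 and edgeR 4.0.16 (quasi-likelihood) were run on the recovered reads. Single genes were also compared by a two-sided exact permutation test in scipy 1.17.1. Alternatives were both count tools, a pseudocount of 0.1, quantile and upper quartile scaling, only genes at 1 or more in all libraries, the replicate number as a block, fits without 1 library, and, added after seeing the data, replicate 3 of both groups left out and DESeq2 without replicate 3 of either group. limma was tested on simulated data. The study calls the replicates biological, but the labels do not say that each is a separate mouse. The p-values rest on the differences between these samples. In limma the spread of a gene is also drawn towards the intensity trend over all genes.

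All members are reported. Values in every library are given for members with an unadjusted p below 0.05 or groups without overlap, S100a8, S100a9, S100g, and the 3 most abundant of each family. From each of 15 cell type and 6 related lists, the most abundant gene and at most 3 with the smallest unadjusted p below 0.05 are named, except that 1 gene is not reported here, and 3 injured tubule genes that were higher were added. Library values of S100a4 and Anxa8 were added after they were seen. Members and lists were chosen with earlier results of these data known. Lengths and overlaps came from GENCODE M21, which holds 98.2% of the symbols.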

Additional observations from a re-analysis of the deposited data

How the results depend on the processing

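Of 414 log2 fold changes of single members under the alternatives, 384 kept their direction and their side of an adjusted p of 0.05, 17 passed it in the same direction (S100a6, S100a8, S100a9, S100a13, S100a16 and Anxa1) and 13 changed sign. The genes that changed sign were Anxa7, S100a1, S100a10, S100a3, S100a4 and S100g, none of which had an adjusted p below 0.05 in any setting. In 15 cases, from S100a2, S100a3, S100a4, S100a7a, S100b and Anxa8, DESeq2 gave no adjusted p, and these are counted by direction alone. Anxa7 was -0.00777 with quantile normalization, and S100a1 was -0.0245 with replicate 3 of both groups left out, a setting chosen after seeing the data. In limma without 1 library, the log2 fold change ran from -0.00028 to 0.0703 for Anxa7, -0.0195 to 0.141 for S100a1, -0.109 to 0.0357 for S100a10, -0.19 to 0.82 for S100a3, -0.32 to 0.17 for S100a4 and -0.0122 to 0.383 for S100g.

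Genes called over the whole table numbered 0 in limma, 0 with edgeR, 213 with DESeq2, 6 with the replicate block, and 557 with replicate 3 of both groups left out. DESeq2 called 1618 without UIRI replicate 3, where S100a1 was -0.0147. It called 120 when UIRI + BA replicate 3 was left out instead, where S100a4 was 0.162. Both fits were added after seeing the data. Leaving out each library in turn gave, in limma, 0 to 962 calls, and the 962 came without UIRI replicate 3, the deepest library; the cause was not tested. Members at an unadjusted p below 0.05 numbered 5 to 10 in limma with a library left out, while the share of all genes that were lower ran from 1.61% without UIRI replicate 1 (5 members) to 11.5% without UIRI replicate 3 (10 members, 9 of them lower). In the other settings they numbered 6 to 10, beside 2.80% (DESeq2, UIRI + BA replicate 3 left out) to 10.8% (replicate 3 of both groups left out) of all genes lower. The median over S100 genes ran from -0.32 to -0.20 in limma with a library left out, and the median over annexin genes from -0.21 to -0.11, the latter without UIRI replicate 3. Deviations from the group means correlated at -0.240, 0.304 and 0.155 for replicates 1, 2 and 3 over 17249 genes. Libraries of different replicate numbers were not correlated, so these values cannot settle whether the numbers pair the samples. The block left 7 members at an unadjusted p below 0.05, all lower, beside 5.23% of all genes, and 6 were shared with limma without it.

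With 3 libraries a group, an exact test cannot fall below 0.1. Depth limits S100a2, S100a3, S100a4, S100b and S100a7a, for which a few reads set the value.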

Other observations

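Further cell types of the cortex were read from their markers. Thick limb markers were higher in 5 of 6 genes, 1 at an unadjusted p below 0.05, and Egf (epidermal growth factor) had 561, 465 and 700.4 in the UIRI libraries and 831, 711 and 925 in the UIRI + BA libraries. All UIRI + BA libraries were higher than all UIRI libraries, with a log2 fold change of 0.53 (SE 0.15, unadjusted p = 0.00756, adjusted p = 0.342) in limma, whereas uromodulin (Umod), the most abundant, had 0.13 (adjusted p = 0.828). Collecting duct markers were higher in 6 of 9 genes, 0 at an unadjusted p below 0.05, with Hsd11b2 the most abundant at 0.21 (adjusted p = 0.658). Intercalated cell markers were higher in 5 of 6 genes, with a median log2 fold change of 0.23, and Slc26a4 was higher at 0.53 (SE 0.21, unadjusted p = 0.0308, adjusted p = 0.452) and Atp6v0d2, the most abundant, lower at -0.20 (SE 0.09, unadjusted p = 0.0467, adjusted p = 0.484) in limma.

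Endothelial markers had a median log2 fold change of -0.01 over 8 genes, with Emcn the most abundant at -0.11 (adjusted p = 0.672), and podocyte markers had -0.07 over 6 genes, with Podxl at 0.12 (adjusted p = 0.703). Of the 6 Schwann cell markers, Erbb3, also a gene of tubules, was the most abundant and was higher at 0.20 (SE 0.07, unadjusted p = 0.0245, adjusted p = 0.441) in limma. Only Fabp4 of the 7 adipocyte markers was measured, at 0.07 (adjusted p = 0.754), and the others, Adipoq among them, were not analysed here.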
